A study of Sus scrofa with 37 samples.

Results

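The genes described here handle calcium in the sarcoplasmic reticulum of skeletal muscle, the internal store from which calcium is released to start a contraction. They were chosen by symbol from a list of 10 (ATP2A1, ATP2A2, RYR1, CASQ1, CASQ2, SLN, PLN, CACNA1S, CACNA2D3 and TECRL). Of these, 8 were rows of the count table, which held 9418 rows, and all 8 were among the 9411 genes tested. RYR1 and PLN are not analysed here.

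The tissue was skeletal muscle of Bama minipigs, a small breed of pig, sampled after contusion, a blunt injury, every 4 h up to 24 h and again at 48 h, with 4 libraries at each of the 7 times. The controls are 9 more libraries. Mechanical damage is the labelled treatment of every library, also of the controls, and the muscle, the animals' age and their sex are not used here. The design text gives 8 minipigs for these 37 libraries and no label says which libraries share an animal, so every p-value below measures spread between libraries and not between animals.

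A muscle action potential is sensed by the voltage-gated channel CaV1.1 in the tubular membrane, whose pore subunit is encoded by CACNA1S, and the signal opens release channels in the reticulum. Calsequestrins hold calcium inside the store. SERCA pumps return calcium from the cytosol, and small membrane peptides such as sarcolipin inhibit them. Fast fibres use mainly the pump encoded by ATP2A1 and the calsequestrin encoded by CASQ1, whereas ATP2A2 and CASQ2 are the forms of the heart and are also expressed in slow fibres.

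Column totals of the table ran from 9.86 to 22.9 M counts, and 3 libraries, 1 at 4 h and 2 at 24 h, were above 20 M. Values are CPM, counts scaled to the library size after TMM normalization, ± SD over libraries. Changes are log2 fold changes ± SE from edgeR's quasi-likelihood test, with p-values adjusted over all genes tested and a threshold of 0.05. Beside each count of members called stands the share of all tested genes called in that direction. Libraries also differed in a way that no label names. Sets of libraries defined in an earlier analysis of these data, from the levels of C1QBP, NDUFAF8 and ND6 and the column totals, put no control in a set with any library at 4 h or with the libraries above 20 M. Fits with those sets as a term are given where they change a call. Of 6 genes of muscle fibres of any type 3 were measured (CKM, DES and NEB), and no measured marker was at 0 throughout a group. Of 11 listed fast fibre genes 7 were measured, while MYH1, MYH2, MYH4 and MYLPF were not. All 9 listed slow fibre genes were measured.

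The control libraries differed widely in these genes. TECRL spanned 4.83 to 299 CPM over the 9 controls (median 130.0 CPM), CACNA2D3 0.864 to 27.8 CPM (median 7.88 CPM), CASQ2 6.35 to 58.0 CPM (median 24.7 CPM), SLN 892 to 8169.6 CPM, ATP2A1 1525 to 10850.5 CPM and ATP2A2 1715 to 10267 CPM (median 7529.5 CPM). CASQ1 (1240.3 to 3700.4 CPM) and CACNA1S (469 to 1362 CPM) varied least. Control replicates 5, 6 and 7 had the 3 highest levels of ATP2A1, CASQ1, SLN and CACNA1S and the 3 lowest of ATP2A2, CASQ2 and TECRL. The same 3 libraries had the 3 highest summed levels of 7 fast fibre genes (51274 to 98071 CPM, against 13096 to 38638 CPM in the other controls). They also had the 3 lowest sums of 9 slow fibre genes (9400 to 28814 CPM, against 35791 to 131884 CPM in the others). TECRL ranked the 9 controls in exactly the order of the slow fibre sum. In tissue RNA, fewer fibres of a type and less RNA per fibre cannot be told apart.

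**Figure D1:**
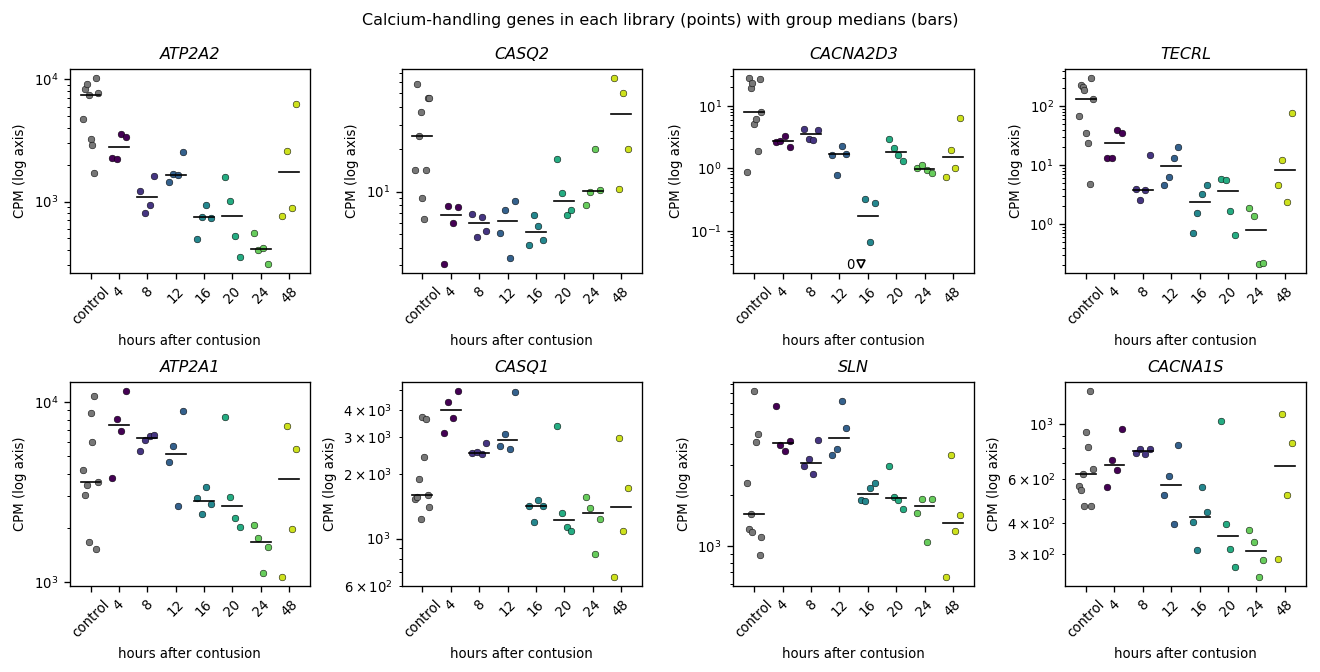
Level of each of 8 calcium-handling genes in CPM (log axes) in every library, by group, with bars at the group medians; an open triangle marks a library with 0 counts. The upper row holds the genes lower than control at most times, with CACNA2D3 at 0 to 0.317 CPM at 16 h, and the lower row holds ATP2A1, CASQ1, SLN and CACNA1S, of which CACNA1S lay wholly below the controls at 24 h.

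Of the 2 pumps, ATP2A2, which encodes SERCA2 of slow muscle and heart (chromosome 14, 31674659 to 31744981), was called lower at 5 of the 7 times. Its mean was 6183 ± 3081 CPM in the controls (n = 9), 2855 ± 715 CPM at 4 h, 1144 ± 353 CPM at 8 h, 1835 ± 496 CPM at 12 h, 728 ± 185 CPM at 16 h, 869 ± 559 CPM at 20 h, 421 ± 101 CPM at 24 h and 2628 ± 2568 CPM at 48 h (n = 4 each). The calls were at 8, 12, 16, 20 and 24 h, with every library below the lowest control at 8, 16, 20 and 24 h. The largest change was at 24 h (-3.88 ± 0.55, edgeR adjusted p = 1.21e-06), where the libraries held 555, 399, 419 and 311 CPM, against a lowest control of 1715 CPM. At 4 h its change of -1.11 ± 0.46 missed the threshold (edgeR adjusted p = 0.0881), as it did at 48 h (-1.23 ± 0.47, edgeR adjusted p = 0.0569). DESeq2 called both lower (adjusted p = 0.0406 at 4 h and 0.0193 at 48 h). Limma-voom called ATP2A2 lower at 48 h (adjusted p = 0.0218) and not at 4 h (adjusted p = 0.163).

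The 48 h libraries differed among themselves in ATP2A2. They held 759.7, 2596, 886 and 6269.8 CPM, so replicates 1 and 3 lay below all controls and replicates 2 and 4 within their range. Summed leukocyte markers, 10 genes of white blood cells, were 584 and 455 CPM in replicates 1 and 3, against 93.7 and 84.7 CPM in replicates 2 and 4. That sum was 43.4 to 94.5 CPM in the controls. The slow fibre sum also differed, at 5800 and 5206 CPM in replicates 1 and 3, against 19362 and 46053 CPM in replicates 2 and 4. ATP2A2 amounted to 13.1% to 17.0% of the slow fibre sum in the 4 libraries. ATP2A2 was higher at 48 h than at 24 h (2.64 ± 0.55, edgeR adjusted p = 0.00106), with all 4 libraries at 48 h above all 4 at 24 h. Without 48 h replicate 4 the change was 1.75 (edgeR adjusted p = 0.0187). The part of white cell content or of slow fibre content in these levels was not tested.

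ATP2A1, encoding the fast pump SERCA1 (chromosome 3, 18545064 to 18568312), passed the threshold at 24 h (-1.56 ± 0.50, edgeR adjusted p = 0.00888). Its libraries there held 2064, 1758, 1118 and 1564 CPM, against 1525 to 10850.5 CPM in the controls, so the groups overlapped. The call was lost with a replicate block (-0.98, edgeR adjusted p = 0.103) and without the libraries above 20 M (edgeR adjusted p = 0.0676). The 3 measured genes of muscle fibres of any type were also lower at 24 h, with changes of -1.21 ± 0.33 for CKM (edgeR adjusted p = 0.00266), -0.80 ± 0.22 for DES (0.00269) and -1.41 ± 0.30 for NEB (0.000267). CKM and NEB lay wholly below the controls, and the part of muscle content in the changes at 24 h was not tested. Its means at the other times were 7546 ± 3199 CPM at 4 h, 6137 ± 562 CPM at 8 h, 5475 ± 2643 CPM at 12 h, 2852 ± 419.9 CPM at 16 h, 3895 ± 2961 CPM at 20 h and 3987 ± 2976 CPM at 48 h, against 4785 ± 3172 CPM in the controls. At 20 h replicate 1 stood apart with 8295 CPM, beside 2016 to 2987 CPM in the other libraries, and its fast fibre sum was 69543 CPM beside 31962 to 34445 CPM.

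The calsequestrins took different courses. CASQ1, the calsequestrin of fast fibres (chromosome 4, 90276752 to 90288990), was higher at 4 h, with 3116, 4355, 3664 and 4907 CPM, against 1240.3 to 3700.4 CPM in the controls (0.93 ± 0.31, edgeR adjusted p = 0.037). Fast fibre genes were 72954 to 104476 CPM in sum at 4 h, against 13096 to 98071 CPM in the controls, and 3 of 7 were called higher. The part of fibre content in the CASQ1 change was not tested. Its call at 4 h was lost without control replicate 1, 2, 3, 4, 8 or 9, 4 h replicate 2, 3 or 4 or 24 h replicate 4 (edgeR adjusted p = 0.0507 to 0.115), and with the library sets as a term (0.468). CASQ1 was lower at 16 h than at 12 h (-1.26 ± 0.39, edgeR adjusted p = 0.0273), with 1427, 1196, 1521 and 1422 CPM at 16 h, against 2637 to 4863 CPM at 12 h, and the 2 groups did not overlap. That call was lost without 12 h replicate 4 (edgeR adjusted p = 0.123) or 16 h replicate 1, 2 or 4 (0.0502 to 0.0969), and with the library sets as a term (0.89). Against the controls edgeR did not call it after 4 h, while DESeq2 called it lower at 24 h (-0.75, adjusted p = 0.0349), where edgeR gave -0.74 ± 0.34 (adjusted p = 0.0605).

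CASQ2, the cardiac and slow fibre calsequestrin (chromosome 4, 104918204 to 104984019), was low at the early times. Its mean was 28.4 ± 18.9 CPM in the controls, 6.17 ± 2.24 CPM at 4 h, 5.92 ± 1.05 CPM at 8 h, 6.12 ± 2.32 CPM at 12 h, 5.33 ± 1.21 CPM at 16 h, 10.3 ± 4.76 CPM at 20 h, 12.1 ± 5.41 CPM at 24 h and 36.3 ± 25.2 CPM at 48 h. The fall was called at all 6 times to 24 h, with changes between -2.41 ± 0.51 at 16 h (edgeR adjusted p = 0.000227) and -1.24 ± 0.47 at 24 h (edgeR adjusted p = 0.0259). Low control libraries, down to 6.35 CPM, overlapped the injured ones at every time. The call at 24 h was lost with column totals as the scale (-0.73, edgeR adjusted p = 0.194), without the libraries above 20 M (0.197), and without control replicate 2 or 24 h replicate 1, 2 or 4 (0.0548 to 0.0808).

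At 48 h the libraries held 64.1, 10.5, 50.6 and 20.2 CPM of CASQ2. Replicate 1 lay above the highest control, 58.0 CPM, and replicates 1 and 3 were the libraries with low ATP2A2. CASQ2 was higher at 48 h than at 24 h (1.59 ± 0.53, edgeR adjusted p = 0.0309), a call lost without 48 h replicate 1 (edgeR adjusted p = 0.109) or replicate 3 (0.0791), or without any of 24 h replicates 1, 2 and 4 (0.072 to 0.083). Of 5 genes listed as cardiac 1 was measured, TNNT2, the troponin T of heart and developing muscle. It held 1.35 to 13.7 CPM at 48 h (median 1.87 CPM), against 0.435 to 2.15 CPM in the controls (2.13 ± 0.51, edgeR adjusted p = 0.00386). The groups overlapped, and the 48 h median lay within the control range. For TNNT2 no fits without single libraries are given, and its relation to CASQ2 was not tested.

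SLN encodes sarcolipin, a short membrane peptide that inhibits SERCA pumps (chromosome 9, 36232955 to 36242405). At no single time was it called against control by edgeR, at an unadjusted p under 0.05 or by DESeq2 or limma-voom. Its mean was 2808 ± 2420.3 CPM in the controls, 4619.8 ± 1409 CPM at 4 h, 3271 ± 690.1 CPM at 8 h, 4817 ± 1690.4 CPM at 12 h, 2059.8 ± 254 CPM at 16 h, 2109.7 ± 592 CPM at 20 h, 1600.2 ± 389 CPM at 24 h and 1715 ± 1212 CPM at 48 h. The changes ran from 0.78 ± 0.42 at 12 h to -0.81 ± 0.45 at 24 h. In the joint test of the 7 times SLN passed (edgeR adjusted p = 0.0185), as did all 8 members, beside 83.2% of all genes. Relative to the fast fibre sum its group medians lay close together, between 4.85% and 6.67% at the 7 times and at 6.13% in the controls. Those of ATP2A1 ran from 5.36% to 9.92% at the 7 times and stood at 11.8% in the controls, and those of CACNA1S from 0.914% to 1.89% and at 2.40%.

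Of the 2 calcium channel genes, CACNA1S (chromosome 10, 23503701 to 23567797) was called lower at 24 h. Its libraries there held 376, 333, 242 and 284 CPM, all below the lowest control at 469 CPM (-1.21 ± 0.33, edgeR adjusted p = 0.00272). With a replicate block this became -0.86 (edgeR adjusted p = 0.0535), and the median change of CKM, DES and NEB was -1.21 at that time. At 16 h CACNA1S changed by -0.74 ± 0.32 (edgeR adjusted p = 0.054), which DESeq2 called lower (adjusted p = 0.0356). At 8 h its libraries lay between 757 and 799 CPM, against 469 to 1362 CPM in the controls. At 48 h it was higher than at 24 h (1.15 ± 0.37, edgeR adjusted p = 0.0268), at 286, 1099, 517 and 837 CPM at 48 h, against 242 to 376 CPM at 24 h. Leaving out 48 h replicate 2 (edgeR adjusted p = 0.15) or replicate 4 (0.0854), or 24 h replicate 2, 3 or 4 (0.0502 to 0.0853), ended that call.

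CACNA2D3, the alpha-2-delta-3 auxiliary subunit of voltage-gated calcium channels (chromosome 13, 36222295 to 37025119), was called lower at all 7 times. At 16 h it was nearly undetected, with 0, 5, 1 and 4 counts in the libraries, or 0, 0.317, 0.0660 and 0.275 CPM. The controls held 0.864 to 27.8 CPM, and 3 counts corresponded to 0.190 to 0.206 CPM at 16 h. The change there was -6.24 ± 0.88 (edgeR adjusted p = 1.46e-06) and rests on 10 counts at 16 h. At 24 h the libraries held 1.01, 1.14, 0.929 and 0.828 CPM (-3.73 ± 0.70, edgeR adjusted p = 5.51e-05), and 1 control, replicate 1, lay among them at 0.864 CPM. Levels at 12 h (0.779 to 2.27 CPM) and 20 h (1.29 to 2.98 CPM) did not overlap those at 16 h, which was lower than 12 h (-3.20 ± 0.95, edgeR adjusted p = 0.0228), and 20 h was higher than 16 h (3.51 ± 0.92, edgeR adjusted p = 0.0372). All 4 libraries at 16 h belong to 1 library set that holds none of the 12 h or 20 h libraries. With the sets as a term the 2 steps became -2.68 (edgeR adjusted p = 0.843) and 2.99 (0.606). Each of the 8 single libraries at 16 and 20 h, left out in turn, ended the later call (edgeR adjusted p = 0.0537 to 0.12). The call of 16 h against 12 h was lost without 12 h replicate 3 (0.0667) or 4 (0.0554), or 16 h replicate 1 (0.0829) or 3 (0.061). Against control, the call at 4 h was lost without 4 h replicate 2 (edgeR adjusted p = 0.0591) and that at 48 h without 48 h replicate 1 (0.0793) or 3 (0.0587). The change at 48 h was -2.42, and -3.44 without 48 h replicate 4.

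TECRL encodes an enoyl-CoA reductase-like protein of the reticulum membrane, and human mutations in it cause an inherited arrhythmia of calcium handling (chromosome 8, 62542452 to 62646084). Its mean was 132 ± 105 CPM in the controls, 24.9 ± 13.6 CPM at 4 h, 6.30 ± 5.84 CPM at 8 h, 11.2 ± 7.26 CPM at 12 h, 2.53 ± 1.78 CPM at 16 h, 3.44 ± 2.67 CPM at 20 h, 0.917 ± 0.838 CPM at 24 h and 23.9 ± 35.4 CPM at 48 h. It was called lower at all 7 times, and its change was the largest among the 8 members at each time but 16 h, for example -4.41 ± 0.99 at 8 h and -7.19 ± 1.17 at 24 h (edgeR adjusted p = 8.87e-06). At 8 h the libraries held 3.89, 2.52, 3.78 and 15.0 CPM, and the lowest control lay among them at 4.83 CPM. At 24 h they held 1.88, 1.36, 0.214 and 0.216 CPM, all below the lowest control of 4.83 CPM, and replicates 3 and 4 rest on 3 and 6 counts. At 48 h they held 4.54, 12.1, 2.39 and 76.6 CPM, with replicate 4 far above the rest. TECRL was higher at 48 h than at 24 h (4.72 ± 1.12, edgeR adjusted p = 0.00322), and this call was lost without 48 h replicate 4 (2.78, edgeR adjusted p = 0.0759) and without the libraries above 20 M (0.063). The call at 4 h (-2.40 ± 0.86, edgeR adjusted p = 0.0478) was lost on leaving out any of 22 single libraries, among them control replicates 2, 3, 4, 8 and 9 and each library at 4 h, with adjusted p up to 0.159. The call at 48 h (-2.48 ± 0.86, edgeR adjusted p = 0.0389) was lost without control replicate 2, 3, 4 or 8 or 48 h replicate 1, 2 or 3, with adjusted p up to 0.192, and the change became -4.41 without 48 h replicate 4. At 8 h it became -5.28 without 8 h replicate 4.

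**Figure D2:**
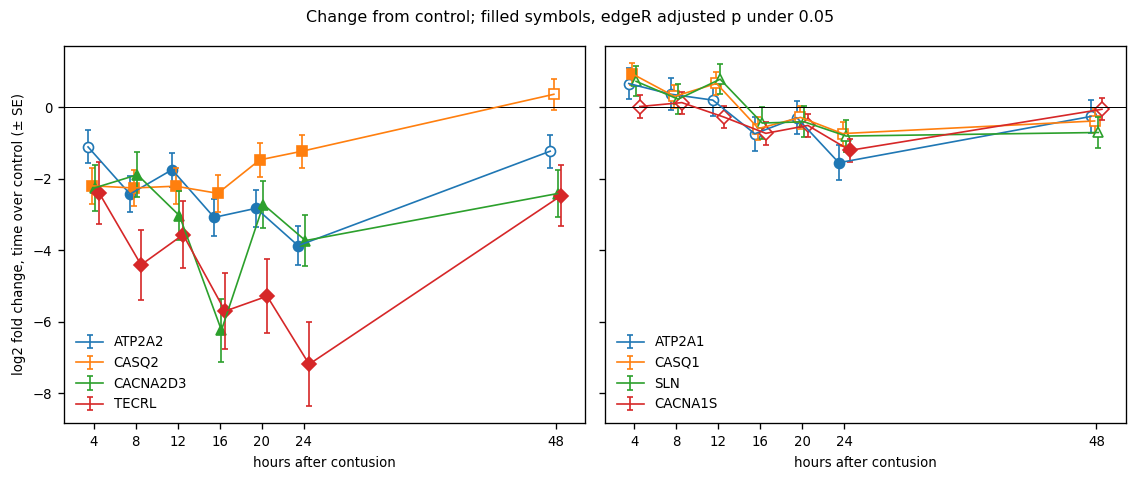
Log2 fold change ± SE of each gene at each time over the 9 controls, from edgeR's fit to all 37 libraries; filled symbols passed an adjusted p of 0.05. The left panel holds ATP2A2, CASQ2, CACNA2D3 and TECRL, down to -7.19 for TECRL at 24 h, and the right panel ATP2A1, CASQ1, SLN and CACNA1S, between -1.56 and 0.93.

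Over the 8 members, 3 were lower at 4 h (CASQ2, CACNA2D3 and TECRL, beside 9.06% of all genes called lower) and 1 was higher (CASQ1, beside 9.22% called higher). ATP2A2, CASQ2, CACNA2D3 and TECRL were the 4 members called lower at 8 h (beside 28.2%), the 4 at 12 h (beside 14.7%), the 4 at 16 h (beside 27.8%) and the 4 at 20 h (beside 26.2%). At 24 h 6 were lower (beside 27.1%), with ATP2A1 and CACNA1S added, and at 48 h 2 were (beside 7.45%), CACNA2D3 and TECRL. EdgeR called no member higher after 4 h, also at an unadjusted p under 0.05 except for CASQ1 at 12 h, while the share of all genes called higher was 25.8% for 8 h, 16.3% for 12 h, 25.3% for 16 h, 25.4% for 20 h, 26.8% for 24 h and 12.8% for 48 h. Libraries lay wholly below the controls for 1 member at 8 h (beside 12.2% of all genes), 3 members at 16 h (beside 15.9%), 1 at 20 h (beside 11.8%) and 3 at 24 h (beside 14.7%).

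The median change of the 8 members lay between -1.58 at 16 h and -0.55 at 4 and 48 h, and that of all genes between -0.07 and -0.02. With the library sets as a term the calls at 4 h (edgeR adjusted p = 0.052 to 0.468) and at 48 h (0.148 and 0.162) were lost, while 3 members were called at 8 h, 4 at 12, 16 and 20 h and 5 at 24 h. Lost with that term were also CACNA2D3 at 8 h (0.0663) and CASQ2 at 24 h (0.0998). CASQ2 (0.0933) and CACNA1S (0.19) at 48 h against 24 h were lost with it too. All 4 libraries at 48 h belong to 1 library set, whose only controls are replicates 6, 7 and 9. TECRL was at 23.7, 4.83 and 130 CPM in these controls, against 4.83 to 299 CPM in all 9. Without the libraries above 20 M edgeR no longer called CASQ1 (0.0872) and TECRL (0.0792) at 4 h, CACNA2D3 at 20 h against 16 h (0.054), or CASQ2 (0.212) and CACNA1S (0.145) at 48 h against 24 h. Limma-voom lost 10 of the 35 member calls. Against control these were CACNA2D3 at 4, 8, 12 and 48 h (limma-voom adjusted p = 0.07 to 0.203). TECRL at 4 h (0.11) and CASQ2 at 24 h (0.0572) were lost too. Between times, CACNA2D3 was lost at 16 h against 12 h (0.231) and at 20 h against 16 h (0.31). CASQ2 (0.0507) and TECRL (0.167) were lost at 48 h against 24 h. The 7 comparisons share their controls. With column totals as the scale in place of TMM, the directions of all genes shifted, to 354 higher and 1337 lower at 4 h (868 and 853 with TMM), 3645 and 1355 at 16 h (2380 and 2615), 3620 and 1456 at 20 h (2389 and 2462), 4538 and 1178 at 24 h (2521 and 2550) and 3050 and 298 at 48 h (1205 and 701).

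Between successive times 2 members were lower at 16 h than at 12 h (CASQ1 and CACNA2D3, beside 9.51% of all genes), and the libraries of 5 members lay wholly lower (beside 15.3%). With column totals the genes called at 16 h against 12 h were 1342 higher and 265 lower, in place of 444 and 895 with TMM. The shares of all genes were 5.43% higher and 1.46% lower at 12 h against 8 h (7.14% and 4.95% with TMM), and 1.84% and 0.542% at 24 h against 20 h (1.93% and 1.28%). CACNA2D3 was the 1 member higher at 20 h than at 16 h (beside 1.01%, with 8.94% of all genes wholly higher). At 48 h 4 members were higher than at 24 h (ATP2A2, CASQ2, CACNA1S and TECRL, beside 10.2%), and ATP2A2 and TECRL were wholly higher (beside 9.07%). EdgeR called 0 members between 4 and 8 h (beside 31.3% in either direction), with 2 at an unadjusted p under 0.05, 1 by DESeq2 and 0 by limma-voom. It called 0 between 8 and 12 h (beside 12.1%), with 0 unadjusted and 0 by either other tool, and 0 between 20 and 24 h (beside 3.21%), with 1 unadjusted and 0 by either other tool. The 2 at 8 h were ATP2A2 (-1.32 ± 0.52, edgeR adjusted p = 0.0519) and TECRL (-2.01 ± 0.96, edgeR adjusted p = 0.104), and ATP2A2 and CASQ1 lay wholly lower at 8 h than at 4 h (beside 12.6%).

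Markers of fibre types and of some other cells changed at the same times, while few endothelial genes were called. All 9 slow fibre genes were called lower at each time from 8 to 48 h, and 4 of 9 at 4 h. Their sum was 5156 to 7903 CPM at 24 h and 6062 to 8084 CPM at 16 h, against 9400 to 131884 CPM in the controls. Fast fibre genes were called in few cases, 3 of 7 higher at 4 h, 1 of 7 higher at 12 h, 1 lower at 20 h and 1 lower at 48 h. All 4 measured smooth muscle genes were lower at 8, 16, 20 and 24 h, with medians of -2.08, -1.62, -1.94 and -1.13, and their sum was 298 to 367 CPM at 24 h, against 483 to 1009 CPM in the controls. Of these 4 genes 3 were lower and 1 higher at 4 h, 3 were lower at 12 h and 1 was lower at 48 h. Of 6 fibroblast genes 5 were lower and 1 higher at 8 h, and 4 were lower and 0 higher at 20 h. At 16 h 2 were lower and 1 higher, and at 24 h 1 was lower and 1 higher. At 12 h 1 was lower, and at 4 and 48 h 0 were called. Of 5 endothelial genes 2 were lower at 8 h and 2 at 12 h. At 16 h 2 of them were lower and 1 higher, and 1 was lower at 20 h and 1 at 24 h. At 4 and 48 h 0 endothelial genes were called. Of 10 leukocyte genes 9 were higher at each of 8, 16 and 24 h and 10 at 20 h, with 0 lower. Those higher were 1 at 4 h, 7 at 12 h and 8 at 48 h, again with 0 lower. The shares of all genes called lower were 28.2% (8 h), 27.8% (16 h), 26.2% (20 h) and 27.1% (24 h). Called higher were 25.8% (8 h), 25.3% (16 h), 25.4% (20 h) and 26.8% (24 h) of all genes. At 4, 12 and 48 h the shares called higher were 9.22%, 16.3% and 12.8%, and those called lower 9.06%, 14.7% and 7.45%. The part of these cells in the members' changes was not tested.

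Set against the slow fibre sum of the same library, ATP2A2, CASQ2 and TECRL took different courses. ATP2A2 amounted to a median of 11.2% of that sum in the controls (7.07% to 18.2%) and, in order of time, to 10.8%, 7.87%, 11.0%, 11.3%, 5.79%, 6.18% and 13.5%. At 20 h (4.58% to 6.33%) and 24 h (5.17% to 7.02%) all libraries lay below the controls. TECRL amounted to a median of 0.196% in the controls (0.0514% to 0.227%) and, in order of time, to 0.0921%, 0.0288%, 0.0635%, 0.0314%, 0.0198%, 0.0109% and 0.0703%, so that all libraries at 20 h (0.00841% to 0.0358%) and 24 h (0.00324% to 0.0238%) lay below the controls here too. For CASQ2 the medians from 16 h on were above that of the controls. It amounted to 0.0400% in the controls (0.0238% to 0.151%) and, in order of time, to 0.0216%, 0.0351%, 0.0375%, 0.0706%, 0.0689%, 0.164% and 0.513%, with a range of 0.0438% to 1.11% at 48 h. All slow fibre sums at 24 h (5156 to 7903 CPM) were below the lowest control sum (9400 CPM). So were all sums at 16 h (6062 to 8084 CPM) and those of 20 h replicates 3 and 4 (9189 and 7671 CPM). The sums of 48 h replicates 1 and 3 (5800 and 5206 CPM) were below it as well. No control had sums as low for comparison, also for the CASQ2 shares of these libraries. These shares are descriptions without a test, and the part of fibre content in the changes of single genes was not tested.

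**Figure D3:**
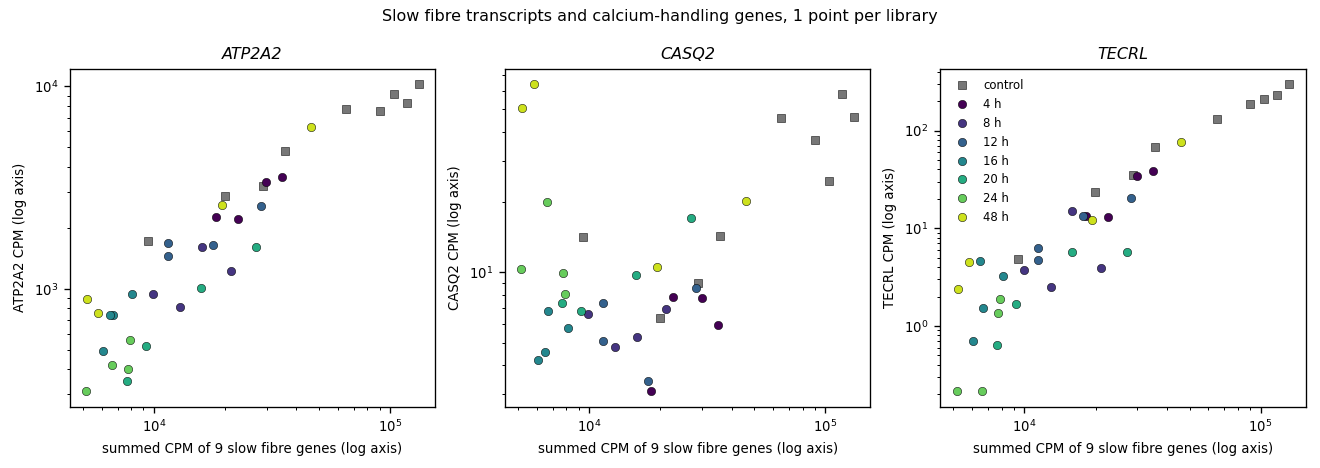
CPM of ATP2A2, CASQ2 and TECRL against the summed CPM of 9 slow fibre genes, 1 point per library, all axes on a log scale, with controls as squares and times as circles. As a share of that sum, ATP2A2 and TECRL are lower in the libraries at 20 and 24 h than in the controls. For ATP2A2 the medians are 5.79% and 6.18%, against 11.2% in the controls. All sums at 24 h (5156 to 7903 CPM) lie below the lowest control sum (9400 CPM). CASQ2 is high, at 64.1 and 50.6 CPM, in 2 libraries at 48 h with sums of 5800 and 5206 CPM.

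The ratio of fast to slow paralogue within a library does not depend on scaling between libraries. The log2 ratio of ATP2A1 to ATP2A2 counts averaged -0.44 ± 1.81 in the controls (n = 9) and, in order of time, 1.33 ± 0.57, 2.47 ± 0.46, 1.48 ± 0.53, 2.00 ± 0.40, 2.15 ± 0.42, 1.95 ± 0.40 and 0.74 ± 0.75 (SD, n = 4 each). The controls ran from -2.75 to 2.66 and overlapped every time. Of 14 exact two-sided permutation tests, 7 times for each of 2 ratios, 0 passed after Benjamini-Hochberg adjustment and 7 had an unadjusted p under 0.05. For ATP2A1 over ATP2A2 the difference at 8 h was 2.90 (exact permutation p = 0.014, adjusted p = 0.0643). Without control replicate 7, the control with the highest ratio, 9 of the 14 passed, among them this one (3.29, exact permutation adjusted p = 0.0236).

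For CASQ1 over CASQ2 the log2 ratio averaged 6.45 ± 1.61 in the controls and, in order of time, 9.40 ± 0.38, 8.78 ± 0.30, 9.12 ± 0.36, 8.04 ± 0.43, 7.31 ± 0.23, 6.75 ± 0.95 and 5.59 ± 2.12. All libraries at 4 h (9.11 to 9.95) and 12 h (8.70 to 9.57) lay above the highest control (8.68). The difference at 4 h was 2.95 (exact permutation p = 0.00699, adjusted p = 0.0643), where the smallest p that 4 against 9 libraries allows is 0.0014. Leaving out control replicate 5, 6 or 7 brought the differences at 4, 8 and 12 h past the threshold (exact permutation adjusted p = 0.0236 to 0.0495). These controls had the highest ratios (8.68, 8.56 and 7.99), so leaving 1 out raises the difference by itself. Leaving out any other single library brought none of these differences past the threshold.

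**Figure D4:**
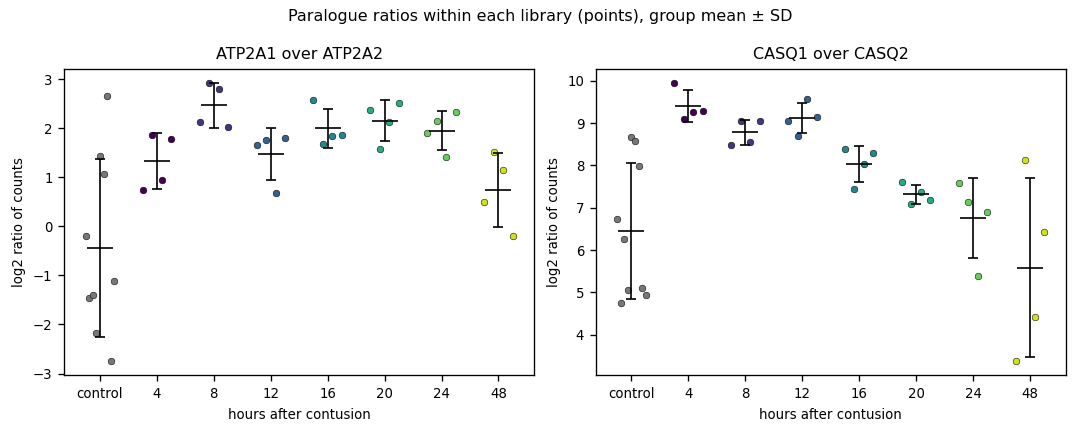
Log2 ratio of counts within each library for ATP2A1 over ATP2A2 (left) and CASQ1 over CASQ2 (right), with group means ± SD. The ATP2A1 ratio lies between 0.68 and 2.93 in all libraries from 4 to 24 h, within the control range of -2.75 to 2.66 except at 8 h, and the mean CASQ1 ratio is 9.40 at 4 h and 5.59 at 48 h.

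Other genes of the calcium pathway were taken from lists chosen with earlier results of these data known. Their counts stand beside 25.3% of all genes called higher and 27.8% called lower at 16 h, and 26.8% and 27.1% at 24 h. Of 14 measured genes of the voltage sensor and triad, the junction of tubule and reticulum, 9 were lower at 16 h and 11 at 24 h, with 0 and 1 higher, and the median change was -0.73 and -1.14. At 48 h 7 of the 14 were higher than at 24 h and 0 lower, beside 10.2% of all genes called higher and 9.22% called lower. SYPL2, mitsugumin-29 of the triad, averaged 57.8 ± 32.6 CPM at 24 h (n = 4), against 623 ± 137 CPM in the controls (-3.43 ± 0.53, edgeR adjusted p = 4.13e-06). It was higher at 48 h than at 24 h by 2.68 ± 0.54. TMEM38A, the TRIC-A cation channel of the reticulum, changed by -2.11 ± 0.34 at 24 h against control and by 1.74 ± 0.37 at 48 h against 24 h. SYNPO2L, a Z-disc actin-binding protein, was still lower at 48 h (-1.06 ± 0.24, edgeR adjusted p = 0.00177).

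Of 9 genes for proteins of the reticulum lumen and release modulators 5 were higher and 4 lower at 16 h, and 5 higher and 3 lower at 24 h, with median changes of 0.52 and 0.84. HRC, a histidine-rich calcium-binding protein of the muscle reticulum, averaged 74.2 ± 18.4 CPM at 24 h, against 512 ± 95.6 CPM in the controls (-2.79 ± 0.38, edgeR adjusted p = 7.49e-07), and was higher at 48 h than at 24 h by 2.26 ± 0.40 (0.000244). CALR, calreticulin, which binds calcium in the endoplasmic reticulum of many cell types, was higher instead, at 407 ± 47.0 CPM at 24 h, against 141 ± 26.0 CPM in the controls (1.53 ± 0.21, edgeR adjusted p = 7.31e-07). CALU, the secretory pathway protein calumenin, was higher by 1.31 ± 0.17. The leukocyte sum was 168 to 467 CPM at 24 h, against 43.4 to 94.5 CPM in the controls, and its part in these rises was not tested.

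Among 7 genes of calcium entry 2 were higher and 3 lower at 16 h, with a median change of -0.69, and 2 higher and 4 lower at 24 h. STIM1, the calcium sensor of the store, fell at 24 h (-1.82 ± 0.26, edgeR adjusted p = 1.5e-06), while ORAI3, a channel subunit gated by STIM1, was at 69.5 ± 18.8 CPM at 24 h, against 8.25 ± 1.43 CPM in the controls (3.07 ± 0.32, edgeR adjusted p = 1.34e-08). ORAI2 was higher at 24 h by 1.21 ± 0.31. Of 7 extrusion genes 5 were higher and 2 lower at 16 h, and 5 higher and 1 lower at 20 h (beside 25.4% and 26.2% of all genes), with median changes of 0.74 and 0.76. SLC8A3, a sodium-calcium exchanger, was higher at 8 h, at 113 ± 16.3 CPM, against 27.7 ± 9.58 CPM in the controls (2.02 ± 0.23, edgeR adjusted p = 4.34e-08). ATP2B4, a plasma membrane calcium pump, was higher by 1.52 ± 0.15 at 24 h, and NPTN, neuroplastin, a partner protein of such pumps, changed by -0.61 ± 0.12.

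Of 8 mitochondrial uptake genes 3 were higher and 4 lower at 8 h (beside 25.8% and 28.2% of all genes) and at 16 h, with median changes of -0.21 and -0.12. MCUB, a subunit that limits the mitochondrial uniporter, was higher at 16 h (1.53 ± 0.27, edgeR adjusted p = 2.78e-05), while the uniporter subunit SMDT1 (-1.04 ± 0.25) was lower. Of 15 genes of calcium signalling and buffering, a list that shares MYOZ2 with the slow and PVALB with the fast fibre list, 3 were higher and 10 lower at 16 h, and 2 higher and 11 lower at 24 h, with median changes of -0.73 and -0.88. RCAN1, an inhibitor of calcineurin, averaged 942 ± 386 CPM at 8 h, against 79.1 ± 30.9 CPM in the controls (3.57 ± 0.49, edgeR adjusted p = 5.68e-07), while its relative RCAN2 fell (-2.78 ± 0.52, edgeR adjusted p = 5.08e-05). The calcineurin catalytic subunit gene PPP3CA changed by -0.99 ± 0.18 at 16 h. Among 6 other pumps and release channels 1 was higher and 3 lower at 16 h (median -0.31), among the lower ones ITPR2, an inositol trisphosphate receptor (-0.67 ± 0.18). ATP2A3, the SERCA3 pump of non-muscle cells, was higher at 48 h (0.98 ± 0.25, edgeR adjusted p = 0.00684). ATP2C1, a Golgi calcium pump, changed by 0.45 ± 0.16 at 8 h.

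**Figure D5:**
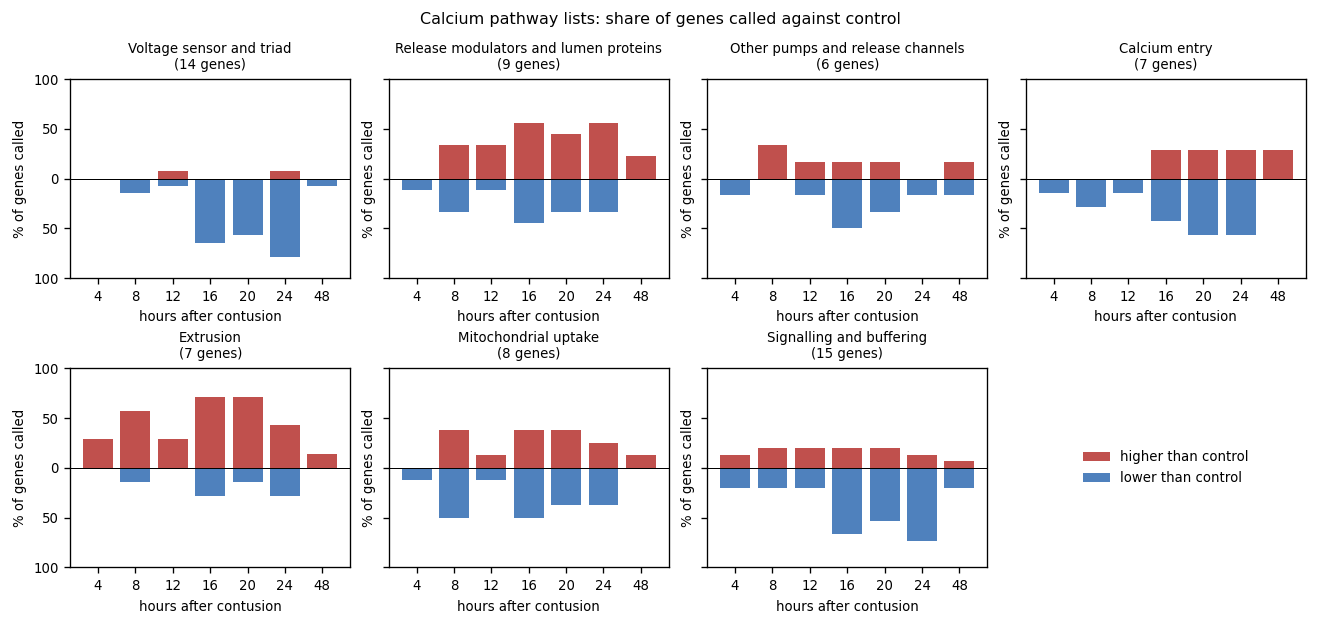
Share of the measured genes in each of 7 calcium pathway lists called higher (red, upward) or lower (blue, downward) than control by edgeR at each time. The triad list has 9 of 14 genes lower at 16 h and 11 of 14 at 24 h, and the extrusion list has 5 of 7 higher at 16 and 20 h.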

How the data were processed

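RNA of flash-frozen muscle was sequenced on a HiSeq-2500 with read pairs of 150 bases, per the labels' protocols. The submitters' processing notes list Trimmomatic, HISAT2 2.2.1, HTSeq, FastQC and MultiQC, and Sscrofa11.1 as the genome build. The annotation release and strand setting are not given in the sources used here, so sense and antisense reads of overlapping genes cannot be separated. The authors deposited raw counts per gene symbol in 1 table, whose rows each reach at least 101 counts in some library, so column totals are not sequencing depth. All 37 columns were matched to samples by title. Gene spans are from RefSeq on Sscrofa11.1, as 1-based positions.

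Counts were TMM-scaled and the 9411 genes passing filterByExpr entered 1 robust quasi-likelihood model with group as the factor (edgeR 4.0.16, limma 3.58.1, R 4.3.3), after testing on simulated counts, with Benjamini-Hochberg adjustment over those genes. Paralogue ratios used counts plus 0.5, and 2 planned ratios with RYR1 and PLN were not computed, so adjustment ran over 14 tests. A floor of 3 counts was 0.108 to 0.378 CPM, for counting error only. No pair of libraries of a group agreed within sampling noise (lowest chi-square per degree of freedom 16.1).

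All members were named, and in each of 7 pathway lists the 3 genes with the smallest joint p, of which 1 gene is not reported here. TNNT2 was chosen after its values were seen. Members and lists were chosen with earlier results of these data known. The 5 library sets follow an earlier analysis, with thresholds of 20 M total counts, 8 CPM of C1QBP, 4 CPM of NDUFAF8 and 32 CPM of ND6. Alternatives were RLE factors, column totals, other filters, limma-voom, DESeq2 1.42.0, blocks for replicate number, the library sets, fewer libraries and leaving out each library.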

Additional observations from a re-analysis of the deposited data

Results flagged for a closer look

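In 5 of 64 groups of values, each a member in 1 group of libraries, 1 library lay far from the others, and chance flags about 1 in 20. At 20 h replicate 1 had 8295 CPM of ATP2A1, beside 2016 to 2987 CPM in the other 3 libraries, and 3380.4 CPM of CASQ1, beside 1081 to 1318 CPM. At 8 h replicate 4 had 2812 CPM of CASQ1, beside 2504 to 2544 CPM, and 15.0 CPM of TECRL, beside 2.52 to 3.89 CPM. At 48 h replicate 4 had 76.6 CPM of TECRL, beside 2.39 to 12.1 CPM.

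The change from control differed between successive times for 7 results, by edgeR's test of the 2 times against each other. CASQ1 (-1.26 on the log2 scale, edgeR adjusted p = 0.0273) and CACNA2D3 (-3.20, 0.0228) were lower at 16 h than at 12 h. CACNA2D3 was higher at 20 h than at 16 h (3.51, 0.0372). At 48 h ATP2A2 (2.64, 0.00106), CASQ2 (1.59, 0.0309), CACNA1S (1.15, 0.0268) and TECRL (4.72, 0.00322) were higher than at 24 h.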

How the results depend on the processing

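No called change of a member reversed under any alternative. All 35 stayed past the threshold with RLE factors, no filter, a filter of 5 CPM in 4 libraries and DESeq2. A filter leaves the counts of a kept member as they are, so the 2 filter settings test little. CACNA2D3 reached 5 CPM outside the controls only in 48 h replicate 4 (6.28 CPM). Fewer stayed with column totals (33), a replicate block (33), limma-voom (25) and the library sets as a term (22). Without the libraries above 20 M 27 stayed. In fits of the compared groups alone 26 stayed and 8 were lost, and the remaining call was not tested there. Scaling by column totals moved the median change of all genes against control by -0.15 (4 h), 0.35 (16 h), 0.33 (20 h), 0.48 (24 h) and 0.35 (48 h), and by 0.37, 0.15 and -0.11 for 16 h against 12 h, 24 h against 20 h and 48 h against 24 h. Directions hold relative to TMM.

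With the library sets as a term, the genes called against control numbered 259 (4 h), 2575 (16 h) and 1108 (48 h), and 0 for each of 8 h against 4 h, 12 h against 8 h, 16 h against 12 h and 20 h against 16 h, with 54 for 24 h against 20 h and 842 for 48 h against 24 h. Members called were then 0 against control at 4 h and at 48 h, 0 for 16 h against 12 h and for 20 h against 16 h, and 2 for 48 h against 24 h. DESeq2 called 412 genes for 20 h against 16 h, 559 for 24 h against 20 h and 1 member for 8 h against 4 h. With limma-voom 2 members were called at 4 h, 1 for 16 h against 12 h, 0 for 20 h against 16 h and 2 for 48 h against 24 h. Fits of the compared groups alone called 932 genes (48 h), 234 (12 h against 8 h), 444 (20 h against 16 h) and 903 (48 h against 24 h), and 1 member (4 h), 0 (48 h), 3 (8 h against 4 h), 4 (16 h against 12 h) and 2 (48 h against 24 h). Column totals gave 3348 genes (48 h), 648 (12 h against 8 h) and 118 (20 h against 16 h), and 5 members in the joint test. Without the 3 libraries above 20 M, an alternative chosen after seeing the data, there were 1133 genes (4 h), 13 (24 h against 20 h) and 799 (48 h against 24 h), and 2 members (4 h), 0 (20 h against 16 h) and 1 (48 h against 24 h). The causes were not tested.

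Whether replicate numbers pair libraries of an animal is not given by the labels and is not settled by the correlations. Same-numbered pairs correlated at a mean of 0.0244, and differently numbered pairs at -0.00519. Of 112 same-numbered pairs 44 correlated above 0.1, and 12 of 32 libraries correlated best with their own number. A replicate block gave 2 members for 8 h against 4 h, and ATP2A1 (-0.98) and CACNA1S (-0.86) lost their calls at 24 h.

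Leaving out 1 library at a time, genes called ran from 608 to 1954 (4 h), 1827 to 3046 (12 h), 368 to 2732 (48 h), 1610 to 3536 (8 h against 4 h), 135 to 1895 (12 h against 8 h), 567 to 1788 (16 h against 12 h), 65 to 261 (20 h against 16 h), 98 to 384 (24 h against 20 h) and 1048 to 2442 (48 h against 24 h). Members called ran from 1 to 5 (4 h), 0 to 3 (48 h), 0 to 2 (8 h against 4 h), 0 to 3 (16 h against 12 h), 0 to 1 (20 h against 16 h) and 2 to 4 (48 h against 24 h). The ATP2A1 over ATP2A2 difference ran from 1.47 to 2.15 (4 h), 2.62 to 3.29 (8 h), 1.63 to 2.30 (12 h), 2.14 to 2.82 (16 h), 2.30 to 2.97 (20 h) and 2.09 to 2.77 (24 h). That of CASQ1 over CASQ2 ran from 2.73 to 3.22 (4 h), 2.11 to 2.60 (8 h) and 2.45 to 2.94 (12 h). With pseudocounts of 1 and 5 and with library set means removed, each of the 14 ratio tests stayed on its side of the threshold.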
